A study of Mus musculus with 32 samples.

Results

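The cytokine, chemokine and receptor genes were followed in 4 tissues of Nox4 knockout mice. They were the genes whose symbol in the probe annotation began with Ccl, Ccr, Cxcl, Cxcr or Il and a digit, or with Tnf or Ifn. This took 86 of 9030 named genes, carried by 105 of 20794 probes, and 14 of the 86 had more than 1 probe. By role they were 17 CC chemokines, 4 CC receptors, 5 CXC chemokines, 1 CXC receptor, 13 interleukins, 18 interleukin receptors or binding proteins, 6 TNF-family ligands, 12 TNF-family receptors, 6 TNF-induced proteins, 3 interferon receptors and the amino acid oxidase gene Il4i1. Il1rn, which blocks the IL-1 receptor and is not itself a receptor, was counted among these 18 by its symbol. The symbol rule matched no interferon gene.

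Brain, kidney, muscle and pancreas came from the same 4 male Nox4 -/- mice on a C57BL/6 background, aged 17 weeks. The control was RNA pooled from wild-type males of that strain and age, of 4 animals by the design text and 6 by the labelling protocol. The labels do not say whether each tissue had a pool of its own. Each animal and tissue was measured on 2 cDNA arrays with the dyes exchanged, so a tissue has 8 arrays from 4 animals. Values are log2 ratios, likely of knockout over pool. If they are the inverse, above and below 0 swap in every result here. Because the pool counts as 1 control sample in each tissue, no test includes the spread between wild-type animals. How the knockout was made is not given in the sources used here. Nox4 itself was not analysed here, so the deletion was not checked on these arrays, and ratios alone do not allow the labelled tissues to be checked by marker levels.

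Nox4 is an NADPH oxidase that makes hydrogen peroxide, and reactive oxygen species act on kinase and transcription factor pathways that control inflammatory genes. Chemokines draw leukocytes through G-protein-coupled receptors. Most interleukins and interferons signal through receptors coupled to JAK kinases and STAT factors, whereas IL-1, IL-18 and TNF signal mainly to NF-kappaB. In resting tissue much of the RNA of these genes comes from resident macrophages, lymphocytes, endothelium and stromal cells.

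Promoter windows are shown for 4 genes on which the results turn: Il18, Ccr2 and Il2, which with Il11 had the smallest p above 0 in muscle among the members with 1 sign in every animal, and Cxcl9, which lay below 0 on all 8 brain arrays. Each is the 250 bases before the start, from RefSeq on GRCm38.p6, and each of these genes has 1 start in the RefSeq table used. Of the 86 members, 67 matched that table, with 83 promoters. Motifs were searched on either strand: the TATA box TATAAA, the gamma-activated site TTCNNNGAA, the AP-1 site TGANTCA and the NF-kappaB site. Capitals mark the matches.
Il18, chr9:50554450-50554699, plus strand: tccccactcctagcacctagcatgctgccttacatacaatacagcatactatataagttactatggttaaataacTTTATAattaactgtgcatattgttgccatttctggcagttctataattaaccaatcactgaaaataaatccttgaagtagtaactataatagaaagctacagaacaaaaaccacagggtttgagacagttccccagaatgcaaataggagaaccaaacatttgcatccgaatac
Ccr2, chr9:124101933-124102182, plus strand: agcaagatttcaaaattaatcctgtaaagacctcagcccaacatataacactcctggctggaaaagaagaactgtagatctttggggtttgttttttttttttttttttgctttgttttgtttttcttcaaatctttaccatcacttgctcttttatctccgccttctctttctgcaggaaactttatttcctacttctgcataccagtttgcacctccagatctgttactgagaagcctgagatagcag
Il2, chr3:37125955-37126204, minus strand: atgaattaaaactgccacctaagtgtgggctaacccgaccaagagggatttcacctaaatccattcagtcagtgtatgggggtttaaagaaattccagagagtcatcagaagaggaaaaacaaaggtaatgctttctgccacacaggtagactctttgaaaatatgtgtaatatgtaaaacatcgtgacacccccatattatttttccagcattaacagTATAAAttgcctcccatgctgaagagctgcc
Cxcl9, chr5:92328080-92328329, minus strand: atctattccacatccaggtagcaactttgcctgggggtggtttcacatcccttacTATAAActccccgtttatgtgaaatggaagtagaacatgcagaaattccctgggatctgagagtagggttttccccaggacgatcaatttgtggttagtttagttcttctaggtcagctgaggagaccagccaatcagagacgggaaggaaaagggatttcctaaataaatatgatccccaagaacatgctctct
TATAAA was found in the windows of Il2 and Cxcl9 on the printed strand, beginning 31 and 195 bases before the start. In the Il18 window it lies on the opposite strand, printed as TTTATA, 175 bases before the start. The letters searched for the other motifs had no exact match in these 4 windows. Sites that differ from those letters were not searched for, so their absence is not shown. Over all 32851 promoters of this length, 12.4% held TATAAA, 7.02% the gamma-activated site, 6.75% the AP-1 site and 7.25% the NF-kappaB site. Among the 83 member promoters the shares were 14.5%, 12%, 13.3% and 18.1%. These matches describe the letters of the windows.

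Arrays held 19815 to 20684 values, and between 96 and 105 of the 105 member probes. Members were tested with limma where at least 3 animals had both arrays: 86 in brain and in kidney, 84 in muscle, and 82 in pancreas. Il34 and Il6ra were not tested in muscle, nor were Cxcl9, Il6ra, Tnfaip8l2 and Tnfrsf10b in pancreas. In each tissue the adjusted p (Benjamini-Hochberg, over all genes measured) had to be under 0.05 for a call. The limma fit called 0 members in brain, kidney, muscle and pancreas, as it called 0% of all genes in each of them. At an unadjusted p under 0.05 it took 3 of 86 members in brain (3.49%, against 4.13% of all genes), 8 of 86 in kidney (9.3% against 9.28%), 5 of 84 in muscle (5.95% against 7.29%) and 2 of 82 in pancreas (2.44% against 2.91%). These shares are near the background in each tissue.

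The members' median log2 ratio for brain, kidney, muscle and pancreas was −0.0047, 0.0080, −0.0089 and −0.032. The median of all genes was 0.0074, 0.0026, −0.024 and 0.00075 in the same order. Members lay above 0 in 41 of 86 cases in brain, 48 of 86 in kidney, 39 of 84 in muscle and 34 of 82 in pancreas. Over all genes the counts above 0 were 8926 of 16729, 8664 of 16825, 6924 of 16662 and 8250 of 16377. The 2 dye orientations of an animal often disagreed in sign, so shares are also given with the sign of the arrays that had the knockout in Cy3 turned. The members above 0 then numbered 56 of 86 (brain), 54 of 86 (kidney), 53 of 84 (muscle) and 50 of 82 (pancreas), a majority in each tissue. Over all genes they numbered 9141 of 16729, 8312 of 16825, 8331 of 16662 and 7886 of 16377 when turned. As deposited, the middle of the distribution was widest in pancreas, where the quartiles were −0.15 and 0.050, and narrowest in kidney, at −0.046 and 0.049. In these bulk samples fewer cells of a type and less RNA per cell cannot be told apart.

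**Figure D1:**
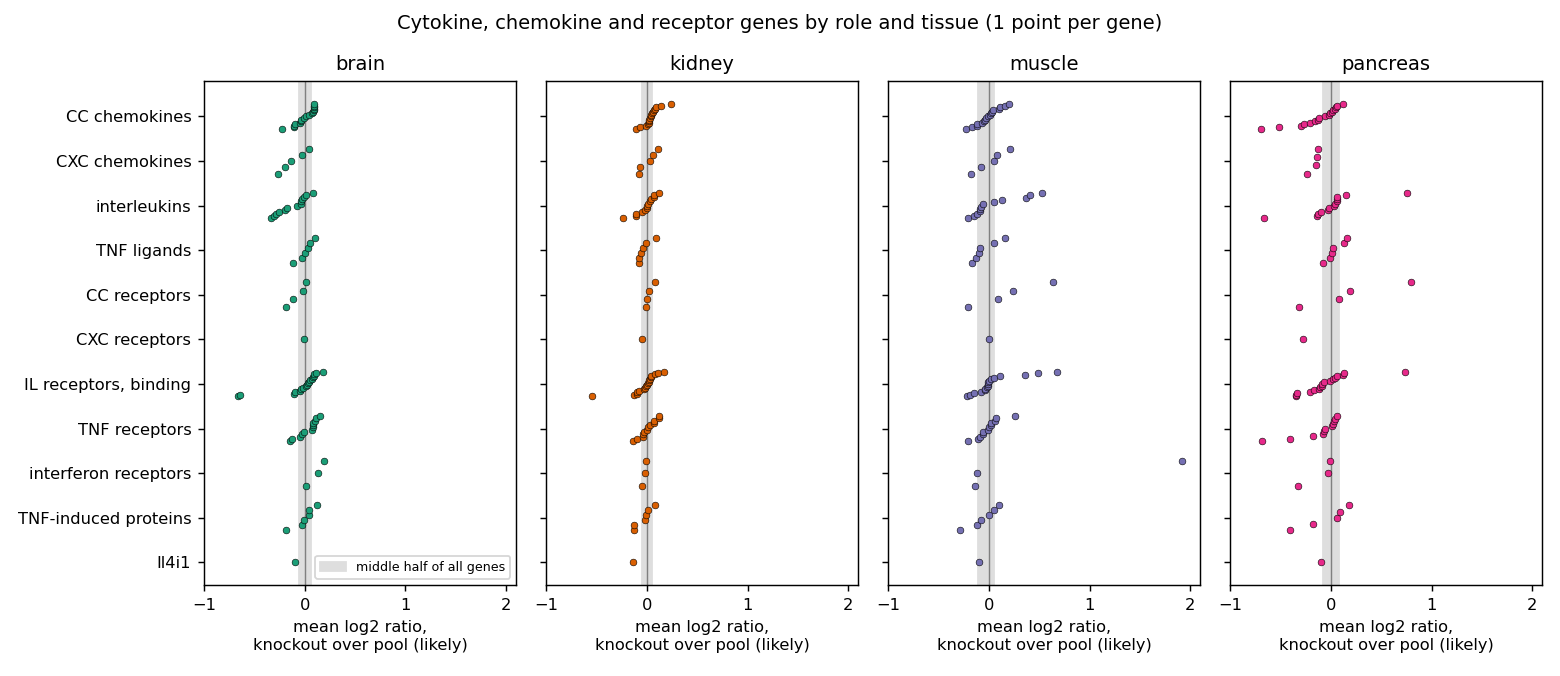
Mean log2 ratio of every tested member (1 point per gene, mean of 3 or 4 animals) by role and tissue; the grey band spans the quartiles of all genes in that tissue. Most members lie near the band, and the muscle point at 1.92 is Ifngr2, whose mean rests on 1 array value at the ceiling of the scale.

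Ratios with the same sign on all 8 arrays of a tissue were few. Brain had 3 members of this kind (3.49%, against 0.879% of all genes): Cxcl9 below 0, and Il18r1 and Tnfrsf12a above. Kidney had Tnfrsf19 below 0 (1 of 86, 1.16% against 1.44%), muscle had Ccr2 and Il18 above 0 (2 of 84, 2.38% against 2.04%), and pancreas had Il6st below 0 (1 of 82, 1.22% against 0.226%).

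Among the chemokines, which recruit leukocytes, 14 of 17 CC chemokines lay above 0 in kidney (median 0.042), 9 of 17 in brain (0.011), 8 of 17 in muscle (−0.012) and 6 of 17 in pancreas (−0.057). Turning the Cy3 arrays left 10 above 0 in kidney, 9 in brain, 10 in muscle and 8 in pancreas. None passed the adjusted threshold in limma, and at an unadjusted p under 0.05 kidney had 3 of 17 (Ccl1, Ccl25 and Ccl7; 9.28% of all genes passed there) and pancreas 1 of 17 (Ccl12; 2.91% of all genes). In kidney Ccl25, a chemokine of thymus and gut that binds Ccr9, had animal means of 0.028, 0.12, 0.17 and 0.24. Its mean was 0.14 ± 0.047 (SE, n = 4 animals; limma adjusted p = 0.522), with 6 of 8 arrays above 0. Ccl7, a monocyte attractant, measured 0.13, 0.074, 0.13 and 0.052 in the same kidneys, with a mean of 0.096 ± 0.037 (adjusted p = 0.528). All 4 animals lay above 0 for both genes, but 3 of the 8 Ccl7 arrays did not.

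Ccl12, a monocyte attractant of the MCP family, was the member with the lowest pancreas ratio. With the knockout in Cy5 its 4 pancreas arrays read 0.038, −2.57, −2.10 and 0.19, and with the knockout in Cy3 they read −1.06, 0.20, 0.041 and −0.32. The mean was −0.70 ± 0.21 (SE, n = 4; adjusted p = 0.991), and it rests on 3 of the 8 arrays, the other 5 lying between −0.32 and 0.20. In brain, kidney and muscle its mean was 0.011, 0.021 and 0.0093.

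Ccl24, an eosinophil attractant, had muscle values of −0.065, −0.017, −0.45 and −0.36 by animal (mean −0.22 ± 0.098, adjusted p = 0.662), with 7 of 8 arrays below 0. Ccl1, the ligand of Ccr8, read −0.072, −0.11, −0.22 and −0.067 in muscle but 0.33, 0.080 and 0.30 in the 3 kidneys measured on both arrays. Its kidney mean of 0.24 ± 0.067 was the highest of all members there (adjusted p = 0.511). Ccl21a, which guides cells along lymphatic vessels, was 0.12 ± 0.091 in pancreas and −0.16 ± 0.084 in muscle.

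The CXC chemokines lay below 0 in 4 of 5 cases in brain (median −0.13) and in 4 of 4 in pancreas (median −0.14), and with the Cy3 arrays turned 4 of 5 lay above 0 in brain (0.067) and 3 of 4 in pancreas (0.18). Cxcl9, an interferon-gamma-induced attractant of T cells, read −0.10, −0.095, −0.12 and −0.48 on the 4 brain arrays with the knockout in Cy5. With the knockout in Cy3 it read −0.29, −0.25, −0.39 and −0.41. Every brain array was below 0, and the mean was −0.27 ± 0.062 (SE, n = 4; adjusted p = 0.773), a ratio of 0.832. In kidney the same gene lay above 0 in all 4 animals (0.046, 0.14, 0.22 and 0.043; mean 0.11 ± 0.046, adjusted p = 0.54), and in muscle its animals ran from −0.19 to 0.60.

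Cxcl10, from the same interferon-induced group, measured −0.30, −0.17, −0.43 and −0.050 in pancreas by animal. Its pancreas mean was −0.24 ± 0.092 (adjusted p = 0.991), but its arrays ran from −1.50 to 0.91. In brain Cxcl10 was −0.19 ± 0.14 and came mainly from animal 4, at −0.70. Cxcl12, which retains cells bearing Cxcr4, had a brain mean of −0.13 ± 0.091, a kidney mean of 0.029 ± 0.042, a muscle mean of 0.048 ± 0.060 and a pancreas mean of −0.12 ± 0.13.

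Of the chemokine receptors, Ccr2, the monocyte receptor for Ccl2, Ccl7 and Ccl12, lay highest in muscle. Its muscle arrays read 0.58, 1.01, 0.34 and 0.61 with the knockout in Cy5 and 0.087, 1.27, 0.55 and 0.64 with the knockout in Cy3. All 8 lay above 0, with animal 2 the highest in both orientations. The mean was 0.64 ± 0.15 (SE, n = 4; adjusted p = 0.538), a ratio of 1.55. Its 2 probes gave 0.89 and 0.39. Brain animals read 0.21, −0.47, −0.21 and −0.27 (mean −0.18 ± 0.12), kidney lay at 0.025 ± 0.064 and pancreas at 0.19 ± 0.090. Ccr6, the receptor of Ccl20, was 0.082 ± 0.072 in pancreas and above 0 in all 4 animals there.

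Among the interleukins, Il18, a cytokine of the IL-1 family that is released after inflammasome cleavage, was high in muscle in every animal. Its muscle arrays read 0.72, 0.66, 0.46 and 0.56 with the knockout in Cy5, and 0.20, 0.79, 0.52 and 0.30 with the knockout in Cy3. All 8 were above 0 and the animal means, 0.46, 0.72, 0.49 and 0.43, did not overlap the animal means of any other tissue. Muscle averaged 0.53 ± 0.074 (SE, n = 4; adjusted p = 0.538), a ratio of 1.44. Brain animals read 0.036, −0.27, −0.42 and −0.37 (mean −0.25 ± 0.087, adjusted p = 0.773), with 7 of 8 arrays below 0. Kidney averaged −0.11 ± 0.091 and pancreas −0.12 ± 0.15, each with animals on both sides of 0.

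Il11 and Il2 also lay highest in muscle and lowest in brain. Il11, a gp130 cytokine, had muscle animals at 0.22, 0.73, 0.22 and 0.47 (mean 0.41 ± 0.11, adjusted p = 0.56) and brain animals at 0.061, −0.16, −0.19 and −0.48 (mean −0.19 ± 0.094). Il2, the T cell growth factor, had muscle animals at 0.34, 0.69, 0.36 and 0.081 (mean 0.37 ± 0.11, adjusted p = 0.596) and brain animals at 0.11, −0.32, −0.29 and −0.64 (mean −0.29 ± 0.12). For both genes animal 2 was highest in muscle and animal 4 lowest in brain. Of the 4 genes Il18, Ccr2, Il11 and Il2, each had every muscle animal above 0 and 3 of 4 brain animals below it. All 4 have probe numbers from 20265 to 20494, and the pattern is not particular to them. The other probes in that range had a median of 0.28 in muscle animal 2 and −0.25 in brain animal 4.

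**Figure D2:**
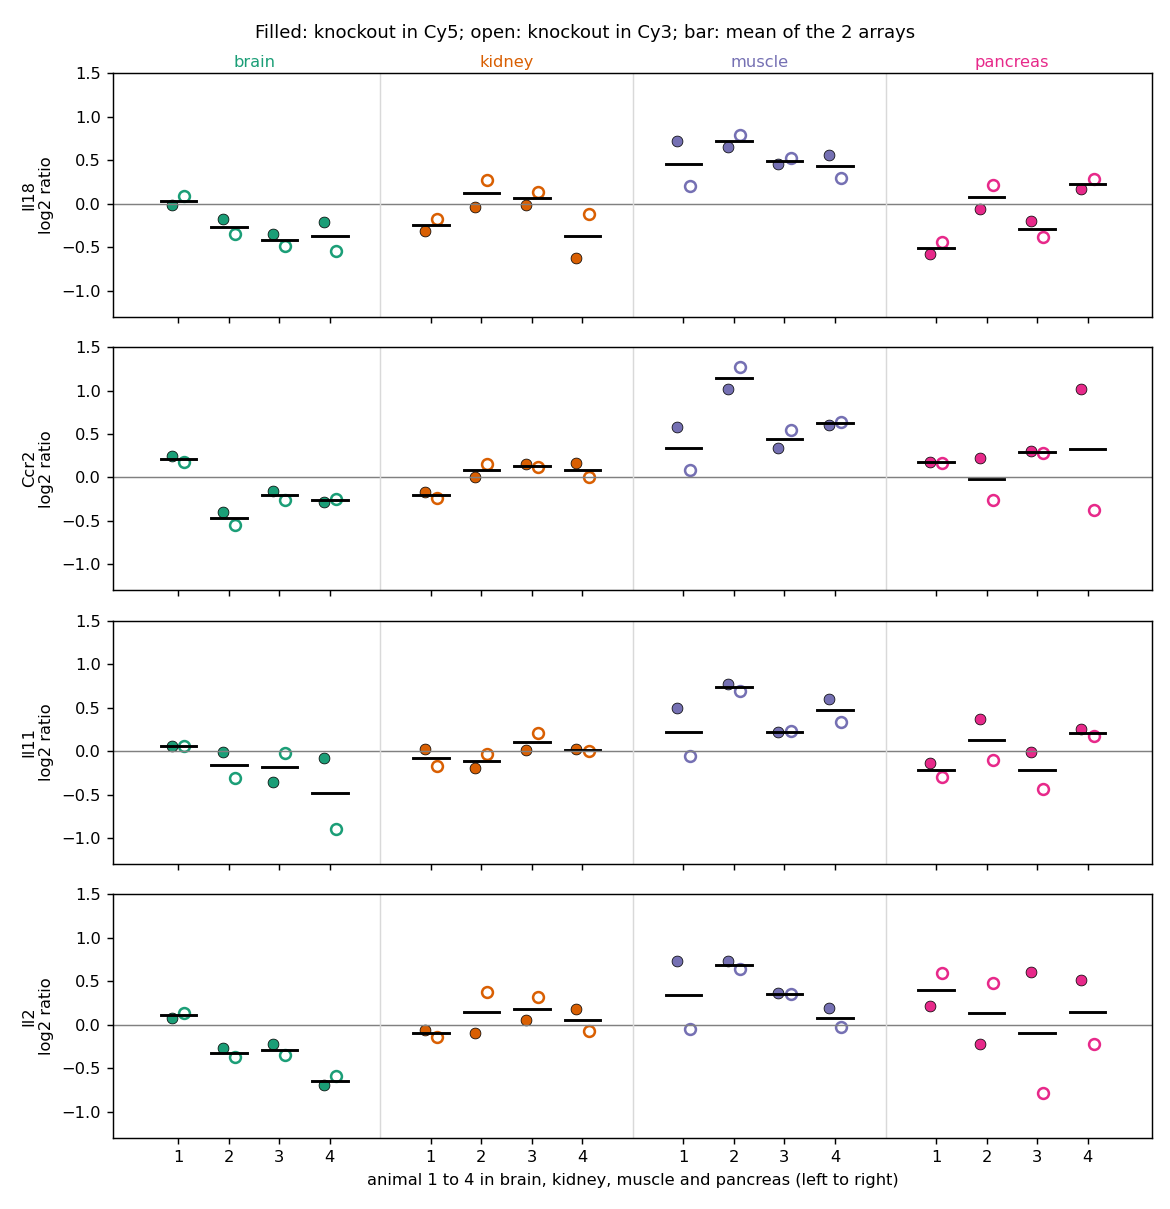
Log2 ratio of Il18, Ccr2, Il11 and Il2 on every array, by tissue and animal; filled points have the knockout in Cy5, open points in Cy3, and bars mark the mean of the 2 arrays. Every muscle bar lies above 0, from 0.081 (Il2, animal 4) to 1.14 (Ccr2, animal 2), while brain animals 2, 3 and 4 lie below 0 for all 4 genes.

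In brain 11 of 13 interleukins lay below 0 (median −0.073), in kidney 5 of 13 (median 0.00075), in muscle 7 of 12 (−0.069) and in pancreas 6 of 13 (0.035). When turned, most lay above 0, at 10 of 13 in brain (0.089), 8 of 13 in kidney (0.018), 9 of 12 in muscle (0.095) and 10 of 13 in pancreas (0.14). Il15, which sustains NK and memory T cells, was −0.33 ± 0.19 in brain, where animal 4 alone reached −1.05. In kidney Il15 read 0.040, 0.14, 0.093 and 0.20 (mean 0.12 ± 0.042, adjusted p = 0.525), above 0 on 7 of 8 arrays. Il7, a growth factor of lymphoid precursors, was −0.10 ± 0.043 in kidney, where its 4 Cy5 arrays were all above 0 and its 4 Cy3 arrays all below. Il34, a ligand of the CSF-1 receptor, read −0.41, −0.075, −0.34 and −0.096 in kidney (mean −0.23 ± 0.070, adjusted p = 0.511).

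The classical inflammatory cytokines Il1b, Il6, Il10 and Tnf had means between −0.17 and 0.13 as deposited. Brain Il1b was −0.17 ± 0.13, kidney Il1b 0.00075 ± 0.038, muscle Il1b −0.084 ± 0.068 and pancreas Il1b −0.032 ± 0.072. Il6 was −0.0033 ± 0.052, 0.073 ± 0.039, 0.13 ± 0.094 and 0.041 ± 0.15 in the same order. Il10, the anti-inflammatory cytokine, was −0.073 ± 0.051, −0.046 ± 0.054, 0.055 ± 0.092 and 0.065 ± 0.097. Turned, Il10 was −0.38 in pancreas (adjusted p = 0.0505) and was among the members called for brain minus pancreas. Tnf was −0.031 ± 0.065, −0.058 ± 0.040, 0.053 ± 0.067 and −0.080 ± 0.095.

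Of the interleukin receptors and binding proteins, 11 of 18 lay above 0 in brain, 10 of 18 in kidney, 7 of 17 in muscle and 6 of 17 in pancreas, against 14, 12, 12 and 10 with the Cy3 arrays turned. Il18r1, the ligand-binding chain of the IL-18 receptor, was above 0 on all 8 brain arrays, from 0.044 to 0.40. Its brain animals read 0.055, 0.13, 0.20 and 0.36 (mean 0.19 ± 0.064, adjusted p = 0.773), whereas Il18 itself lay below 0 in 3 of the same 4 brains. In kidney, muscle and pancreas Il18r1 was 0.037 ± 0.048, −0.033 ± 0.067 and 0.14 ± 0.098. Il17rd, a membrane regulator of FGF and IL-17 signalling, was 0.11 ± 0.047 in brain, and Il5ra, the IL-5 receptor chain of eosinophils, 0.089 ± 0.045, each above 0 in 4 of 4 animals.

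Il6st, the gp130 chain shared by IL-6 and IL-11, lay below 0 on all 8 pancreas arrays, from −0.62 to −0.001. Its pancreas animals read −0.35, −0.076, −0.32 and −0.080 (mean −0.21 ± 0.089, adjusted p = 0.991). Il13ra1, a receptor chain for IL-4 and IL-13, was 0.49 ± 0.18 in muscle, where animal 3 reached 1.15 and animal 4 lay at 0.087. Il1rn, which blocks the IL-1 receptor, was −0.34 ± 0.18 in pancreas, where animal 1 was at −0.97 and animal 3 at 0.011. Il6ra ratios were −0.64 ± 0.38 in brain and −0.54 ± 0.28 in kidney, with brain arrays from −3.58 to 1.03. Il10ra reached −0.67 ± 0.30 in brain, with animal 4 at −1.78.

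In the TNF family, Tnfrsf19 (Troy), an orphan receptor found in brain and epithelial progenitors, was lowest in pancreas. Its pancreas arrays read −0.41, 0.50, −2.55 and −0.004 with the knockout in Cy5 and −0.40, −1.22, −0.25 and −1.10 with the knockout in Cy3. The pancreas mean was −0.68 ± 0.20 (SE, n = 4; adjusted p = 0.991), with 7 of 8 arrays below 0. In kidney its arrays ran from −0.44 to −0.001, all below 0, for a mean of −0.14 ± 0.040 (adjusted p = 0.511). In muscle it was 0.26 ± 0.19, carried by animal 3 at 0.95.

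TNF-family ligands lay below 0 in 5 of 6 cases in kidney and 4 of 6 in muscle, and above 0 in 4 of 6 in brain and in pancreas. Turned, 4 of 6 lay above 0 in kidney, 3 of 6 in muscle, 3 of 6 in brain and 2 of 6 in pancreas. Tnfsf11 (RANKL), the osteoclast differentiation factor, was −0.12 ± 0.059 in brain with 7 of 8 arrays below 0. Its probe number lies between 20265 and 20494, and with the median of the other probes in that range subtracted its brain mean was −0.028. Tnfsf12 (TWEAK), the ligand of Tnfrsf12a, was 0.16 ± 0.087 in pancreas and −0.16 ± 0.095 in muscle. Tnfrsf12a (Fn14) itself lay above 0 on all 8 brain arrays, from 0.006 to 0.27, with a mean of 0.082 ± 0.046. The TNF receptors Tnfrsf1a and Tnfrsf1b had means between −0.11 and 0.082 in the 4 tissues.

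The TNF-induced genes were mixed. Tnfaip2 was 0.18 ± 0.077 in pancreas, above 0 in all 4 animals but on 5 of 8 arrays. Tnfaip8, an inhibitor of apoptosis, averaged −0.40 ± 0.16 in pancreas, but its 2 probes disagreed, at 0.18 and −0.99. Tnfaip8l1 was −0.13 ± 0.043 in kidney (7 of 8 arrays below 0), and Tnfaip1 was −0.11 ± 0.062 in muscle.

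The interferon receptors Ifngr1, Ifngr2 and Ifnar2 lay above 0 in brain (0.13 ± 0.080, 0.19 ± 0.13 and 0.017 ± 0.048) and below 0 in kidney (−0.0046 ± 0.055, −0.017 ± 0.047 and −0.047 ± 0.052) and pancreas (−0.0089 ± 0.080, −0.33 ± 0.18 and −0.032 ± 0.077). Turned, 2 of 3 lay above 0 in brain and in kidney and 1 of 3 in pancreas. The 3 Ifnar2 probes disagreed in kidney, at 0.34, 0.034 and −0.52, the first above 0 and the last below 0 in 4 of 4 animals. In muscle Ifngr2 had a mean of 1.92 ± 1.56. One muscle array of animal 3 gave it 16.3, a value at the ceiling of the scale, and the other 3 animals lay between −0.26 and 0.029. Ceiling or floor values also touched Tnfaip8l2 in muscle and pancreas and Il10ra in pancreas.

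**Figure D3:**
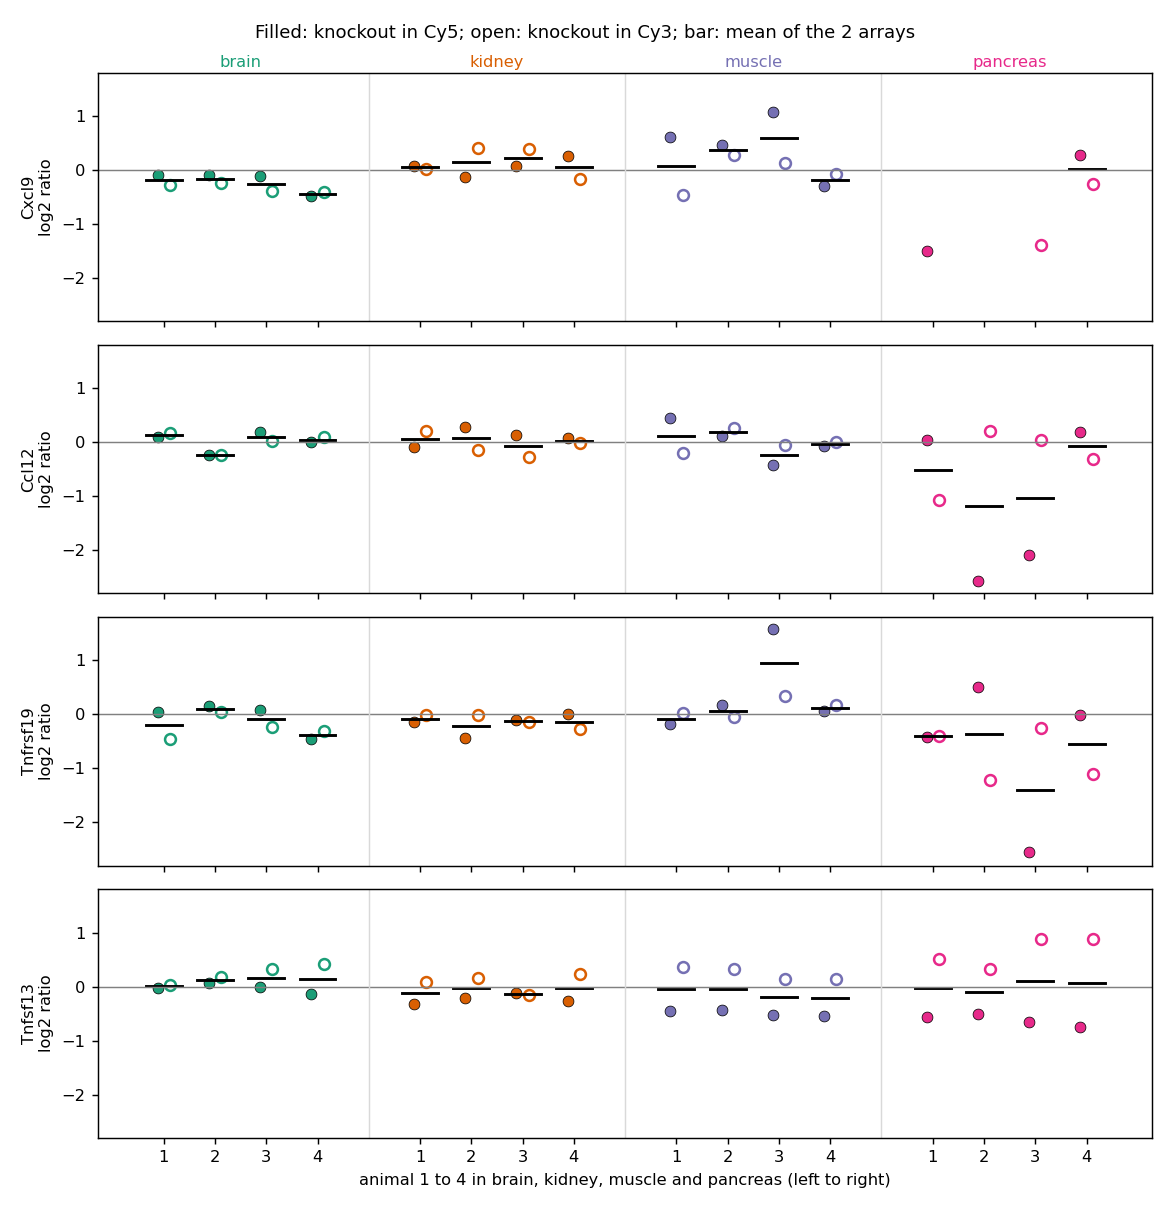
Log2 ratio of Cxcl9, Ccl12, Tnfrsf19 and Tnfsf13 on every array, by tissue and animal; filled points have the knockout in Cy5, open points in Cy3, and bars mark the mean of the 2 arrays where both exist. Cxcl9 lies below 0 on all 8 brain arrays, the pancreas means of Ccl12 and Tnfrsf19 rest on a few arrays from −2.57 to −1.06, and the 2 orientations of Tnfsf13 separate in muscle and pancreas.

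Differences between tissues were tested within 1 fit of all 4 tissues, in which the control RNA of each tissue is taken as separate. It covered 81 members and called 0 of them in each of the 6 differences. The background of calls over all genes was 0% for brain minus kidney, 0.461% for brain minus muscle, 0% for brain minus pancreas, 0.0123% for kidney minus muscle, 0% for kidney minus pancreas and 0.578% for muscle minus pancreas. At an unadjusted p under 0.05 the members numbered 3 for brain minus kidney (3.7%, background 2.92%), 9 for brain minus muscle (11.1%, 9.23%) and 9 for brain minus pancreas (11.1%, 8.29%). They numbered 5 for kidney minus muscle (6.17%, 6.23%), 6 for kidney minus pancreas (7.41%, 5.67%) and 14 for muscle minus pancreas (17.3%, 12.8%).

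Il18 and Ccr2 came nearest to a call between brain and muscle. The Il18 difference, brain minus muscle, was −0.78 ± 0.16 (SE, n = 4 animals per tissue; limma adjusted p = 0.05002), and that of Ccr2 was −0.82 ± 0.17 (adjusted p = 0.0508). Il11 followed at −0.60 ± 0.14 (0.0756) and Il2 at −0.65 ± 0.16 (0.0824). These 4 adjusted p-values lie just above the threshold, and small changes of the processing move Il18 and Ccr2 to either side of it. Over 15 alternatives the adjusted p of Il18 ran from 0.0208 to 0.994 and was under 0.05 in 6. For Ccr2 it ran from 0.011 to 0.975 and was under 0.05 in 5. Without animal 1, limma called all 4 genes, among 223 genes in all. Without animal 2, 3 or 4 it called 0 members, and 0, 1 and 0 genes in all. With the animal as a block, a paired fit, the adjusted p was 0.106 for Il18 and 0.126 for Ccr2. Over all genes the block lowered the calls from 75 to 0 for brain minus muscle, from 2 to 0 for kidney minus muscle and from 94 to 24 for muscle minus pancreas.

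Against kidney, the muscle values of Il18 and Ccr2 also lay apart, with kidney minus muscle at −0.64 ± 0.16 (adjusted p = 0.228) and −0.61 ± 0.17 (0.261). Muscle minus pancreas was 0.65 ± 0.16 for Il18 (adjusted p = 0.0881) and 0.94 ± 0.23 for Tnfrsf19 (0.087). Ccl12 differed by 0.71 ± 0.19 for brain minus pancreas (0.354) and 0.72 ± 0.19 for kidney minus pancreas (0.531). These differences share tissues, so they are not separate observations.

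Smaller differences followed. Ccl1 gave −0.35 ± 0.11 for brain minus kidney and 0.35 ± 0.11 for kidney minus muscle. Tnfsf13 (APRIL), a B cell survival factor, gave 0.23 ± 0.070 for brain minus muscle (adjusted p = 0.243) and 0.18 ± 0.070 for brain minus kidney. Ccl24 gave 0.31 ± 0.11 for brain minus muscle and 0.29 ± 0.11 for kidney minus muscle. Il6st gave 0.25 ± 0.092 for brain minus pancreas and 0.23 ± 0.092 for kidney minus pancreas. Il13ra1 gave −0.85 ± 0.33 for brain minus pancreas, and Il17rc 0.21 ± 0.10 for brain minus kidney. Tnfaip2 gave −0.19 ± 0.075 for kidney minus pancreas. Ccl21a gave −0.24 ± 0.10 there and −0.29 ± 0.10 for muscle minus pancreas, and Tnfsf12 gave −0.32 ± 0.10 for muscle minus pancreas. The adjusted p-values of the differences in this paragraph were 0.19 or higher.

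The 2 dye orientations of an animal often disagreed in sign. Over the members, the r between both arrays of 1 animal lay between −0.734 and 0.164 with ceiling and floor values left out, a correlation across genes that are not independent replicates. Over all genes the r between both arrays of 1 animal lay between −0.569 and 0.0516. Arrays of different animals in the same orientation correlated at r from 0.0317 to 0.482 across all probes of the array, not the members alone. Opposite signs within an animal were most common in muscle animal 1, at 63 of 85 members, and least in kidney animal 3, at 34 of 86. A dye effect of a probe and a difference recorded with the sign of the Cy3 arrays not turned give the same pattern and cannot be told apart from these values.

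**Figure D4:**
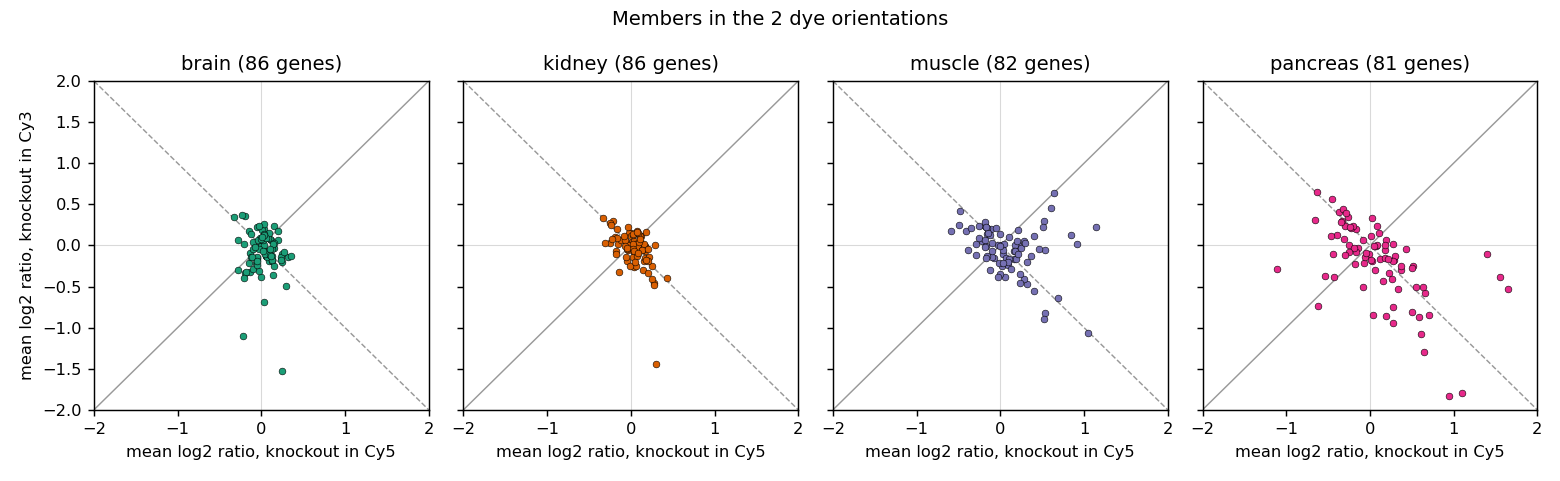
Mean log2 ratio of each tested member on the 4 arrays with the knockout in Cy3 (y axis) against the 4 arrays with it in Cy5 (x axis), by tissue, without members holding a ceiling or floor value. Points on the solid line gave the same ratio in both orientations and points on the dashed line the opposite; many pancreas members lie along the dashed line.

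Results were therefore also computed with the sign of the Cy3 arrays turned. For brain, kidney, muscle and pancreas the members' medians then became 0.047, 0.038, 0.085 and 0.067. With that sign limma called 0 of 86 members in brain (background 0.00598%), 0 of 86 in kidney (0%), 4 of 84 in muscle (4.76%, background 1.97%) and 12 of 82 in pancreas (14.6%, background 14.6%). Between tissues it called 0 for brain minus kidney (0%), 0 for brain minus muscle (0.00615%), 13 of 81 for brain minus pancreas (16%, background 9.29%), 0 for kidney minus muscle (0%), 3 of 81 for kidney minus pancreas (3.7%, background 2.18%) and 0 for muscle minus pancreas (0.0308%).

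Il18, Ccr2, Il11 and Il2 were not among the members called under the turned sign. A gene with the same sign on all 8 arrays is always closer to 0 when the Cy3 arrays are turned. Tnfsf13 shows the pattern most plainly. Its muscle arrays read −0.46, −0.44, −0.52 and −0.55 with the knockout in Cy5 and 0.37, 0.33, 0.14 and 0.13 with it in Cy3. In pancreas they read −0.57, −0.52, −0.67 and −0.75 against 0.52, 0.32, 0.89 and 0.88. As deposited the muscle and pancreas means are −0.12 and 0.012. With the Cy3 arrays turned they are −0.37 (adjusted p = 0.0481) and −0.64 (adjusted p = 0.0357).

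Il27ra, a receptor chain of the IL-6 receptor family that binds IL-27, read −0.19 in muscle and −0.067 in pancreas as deposited, and 0.70 (0.0481) and 0.78 (0.0354) turned. Il15ra, which presents IL-15 to neighbouring cells, read −0.0098 in muscle as deposited and 1.05 turned (0.0481), since its Cy5 arrays averaged 1.04 and its Cy3 arrays −1.06. Tnfsf11 in pancreas read 0.025 as deposited and 0.53 turned (0.0354). Il18 and Ccr2 in muscle went the other way, to 0.072 and −0.00081 when turned. Il11 in muscle and Cxcl9 in brain became 0.11 and 0.067.

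The position of a probe in the array's numbering went with its ratio. Of the 105 member probes, 30 (29 genes) carry numbers from 20265 to 20494. The block was chosen after its values were seen, and its ends are the first and last of these member probes. It holds Il18, both Ccr2 probes, Il11, Il2, Il13ra1 and Cxcl9. Other members named above also have a probe in it: Il15, Cxcl10, Il10ra, Il6, Il6ra, Il7, Il5ra, Il10, Ccl7, Ccl24 and Tnfsf11. Their ratios as deposited are given without any correction for the block. In brain 7 of 30 late member probes lay above 0 (23.3%, median −0.095), beside 22.6% of the 195 other probes measured in that block (median −0.081). Of the earlier probes, 42 of 75 member probes (56%) and 54.3% of the others lay above 0. In muscle 16 of 29 late member probes lay above 0 (55.2%) and 63% of the other late probes, against 40.5% and 41.1% of earlier ones.

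The late probes of an animal shifted together. In muscle animal 2 the median was 0.23 for late member probes and 0.28 for the other late probes, against −0.0013 and −0.040 for earlier ones. In brain animal 4 it was −0.23 and −0.25 late, against 0.020 and 0.022 earlier. All 8 interleukins of the block lay below 0 in brain, and 3 of the 5 interleukins outside it did. What the late block holds in common was not tested, and its part in these results was not tested.

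**Figure D5:**
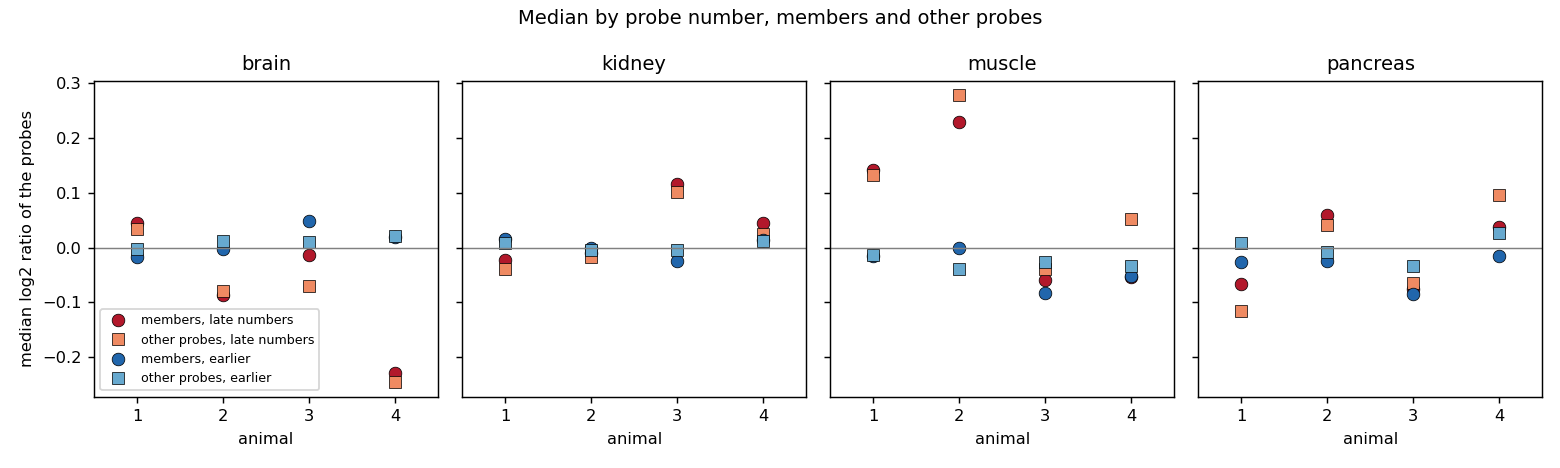
Median log2 ratio by animal (x axis) and tissue of member probes (circles) and other probes (squares) numbered 20265 to 20494 (red shades) or lower (blue shades). Members of the late block sit close to the other late probes in most animals, as in muscle animal 2 at 0.23 and 0.28; in muscle animal 4 they lie apart, at −0.054 and 0.053.

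Taking the median of the other late probes from each late probe on the same array, an alternative chosen after the values were seen, left Il18 in muscle at 0.34, 0.41, 0.46 and 0.38 by animal, with a mean of 0.40 ± 0.058 (SE; adjusted p = 0.533). Ccr2 then stood at 0.21, 0.83, 0.42 and 0.57 (mean 0.51 ± 0.11) and Il11 and Il2 at 0.28 ± 0.083 and 0.24 ± 0.080. Cxcl9 in brain stood at −0.23, −0.078, −0.20 and −0.20 (mean −0.17 ± 0.047). These 5 genes kept every muscle or brain animal on its side of 0. Other late members crossed it, as Il10 did in brain (from −0.073 to 0.019) and in muscle (from 0.055 to −0.074). In brain animal 4, Il15 then stood at −0.81 and Cxcl10 at −0.45. The brain minus muscle difference of Il18 became −0.56 ± 0.13 (adjusted p = 0.0724). limma called 1 member there, Ccl24, at 0.53 ± 0.10 (adjusted p = 0.0378), among 73 genes in all. The members' brain median moved from −0.0047 to 0.018.

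Signalling genes downstream of these receptors were read from lists chosen with earlier results of these data known. Of 25 JAK-STAT genes, 18 or 19 were measured in a tissue, and limma called 0 in each. At an unadjusted p under 0.05 it took 0, 1, 1 and 0 in brain, kidney, muscle and pancreas. Over all genes it took 4.13%, 9.28%, 7.29% and 2.91%. With the Cy3 arrays turned, limma called 1 of 18 in muscle (background 1.97%), 2 of 18 in pancreas (14.6%) and 0 in brain and kidney. In muscle 9737 of all 16662 genes lay below 0, and 8331 lay above when turned. Of the JAK-STAT genes 13 of 18 lay below 0 there (median −0.066), but when turned 11 of 18 lay above (0.059). The genes of smallest p were Ptpn11, a phosphatase in cytokine signalling, at −0.22 ± 0.083 (0.28 turned), and Pias2, an inhibitor of STAT proteins, at −0.15 ± 0.066 (−0.15 turned). In kidney Cish, a STAT5-induced feedback inhibitor, was −0.13 ± 0.038 (0.076 turned). In brain Tyk2 was 0.15 ± 0.073 (−0.18 turned) and Jak3 −0.23 ± 0.11 (0.12 turned), and in pancreas Pias3 was −0.33 ± 0.15 (0.037 turned).

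Of 39 genes of NF-kappaB and TNF receptor signalling, 28 were measured and limma called 0. At an unadjusted p under 0.05 it took 1, 2, 3 and 0 in the same order. Over all genes it took 4.13%, 9.28%, 7.29% and 2.91%. Turned, it called 1 of 28 in muscle (background 1.97%), 5 of 28 in pancreas (14.6%) and 0 in brain and kidney. In muscle the apoptosis inhibitor Birc3 was 0.77 ± 0.20 and the necroptosis kinase Ripk3 0.62 ± 0.12, each above 0 in 4 of 4 animals, but 0.049 and 0.073 with the Cy3 arrays turned. In kidney Tab1, an activator of the kinase TAK1, was −0.40 ± 0.12 (−0.60 turned) and Tab3 0.16 ± 0.059 (0.077 turned). In brain the NF-kappaB cofactor Bcl3 was 0.13 ± 0.043 (0.082 turned) and Irak1, a kinase of IL-1 and IL-18 signalling, −0.16 ± 0.063 (0.14 turned).

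Of 49 interferon-response genes, 27 to 30 were measured and limma called 0. At an unadjusted p under 0.05 it took 2, 2, 1 and 1 in the same order, beside 4.13%, 9.28%, 7.29% and 2.91% of all genes. Turned, it called 3 of 27 in pancreas (background 14.6%) and 0 in the other tissues. In brain Oas2 and Adar, an interferon-induced sensor of RNA and an RNA editing enzyme, were −0.44 ± 0.14 and −0.37 ± 0.11, both below 0 in 4 of 4 animals. When turned, Oas2 was 0.31 and Adar −0.17. Of 30 such genes 16 lay below 0 in brain (median −0.012), and 15 when turned. In kidney Tap1, the antigen peptide transporter, was −0.19 ± 0.044 (−0.14 turned). In pancreas Ifitm1 was 0.30 ± 0.083, above 0 in 4 of 4 animals (−0.11 turned).

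Of 56 cytokines, growth factors and receptors outside the symbol rule, 25 or 26 were measured and limma called 0. At an unadjusted p under 0.05 it took 1, 3, 5 and 0 in the same order. Over all genes it took 4.13%, 9.28%, 7.29% and 2.91%. Turned, it called 1 of 26 in muscle (background 1.97%), 4 of 25 in pancreas (14.6%) and 0 in brain and kidney. In muscle Fasl, the death ligand of T and NK cells, was 0.77 ± 0.15 and Csf2 (GM-CSF) 0.52 ± 0.11, above 0 in 4 of 4 animals (0.24 and 0.17 turned), while 18 of 26 genes lay below 0. When turned, 15 of the 26 lay above 0. Over all genes 9737 of 16662 lay below 0 in muscle, and 8331 lay above when turned. Csf2 was −0.20 ± 0.084 in brain, below 0 in 4 of 4 animals (0.11 turned). Csf2 and 1 of 2 Fasl probes lie in the late block too. Birc3 lies just before it at number 20257, and 1 of 2 Ripk3 probes lies after it at number 20697. Of 18 list genes named for muscle, 7 exceeded 0.4, and 5 of these 7 had a late probe, the others being Birc3 and Ripk3.

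Cell markers were read because leukocytes and endothelium carry many of these cytokines. In muscle, where Il18 and Ccr2 were high, 5 of 13 macrophage markers lay above 0 (median −0.096) and the macrophage protease gene Ctss was −0.53 ± 0.081, below 0 in 4 of 4 animals. With the Cy3 arrays turned 8 of 13 lay above 0 (0.024) and Ctss was 0.86. The muscle range of the macrophage list was −0.53 to 0.082. Of 12 T and NK cell markers 7 lay above 0 in muscle (median 0.037), with the costimulator Cd28 at 0.88 ± 0.17 and the T cell receptor chain Cd3d at −0.37 ± 0.11, each in 4 of 4 animals. Turned, 8 of 12 lay above 0, with Cd28 at 0.083 and Cd3d at −0.51. Cd28 is in the late block. Of 7 B cell markers 1 lay above 0 in muscle, and of 11 granulocyte and mast cell markers 1 did, against 6 and 10 turned. Among endothelial markers 4 of 13 lay above 0 there, Tek at 0.60 ± 0.14 and Cdh5 at 0.42 ± 0.098, both with a late probe. Turned, 8 of 13 lay above 0, with Tek at −0.27 and Cdh5 at −0.026. Over all genes 6924 of 16662 lay above 0 in muscle, and 8331 when turned.

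In pancreas 8 of 11 granulocyte and mast cell markers lay above 0 (median 0.079, from −0.48 for Lcn2 to 0.73 for Cpa3), beside 9 of 11 T and NK cell markers and 6 of 12 macrophage markers. Turned, these counts were 9, 4 and 5. In brain 6 of 13 macrophage markers lay above 0, with a median of −0.0019 and a range of −0.14 to 0.052 (9 of 13 turned). In kidney 8 of 13 did, with a median of 0.021 (7 of 13 turned). With the Cy3 arrays turned, limma called 3 of 11 T and NK cell, 2 of 11 granulocyte and mast cell and 2 of 13 endothelial markers in pancreas. There it called 14.6% of all genes, and in the other tissues it called 0 markers. As deposited it called 0 markers in all 4 tissues. At an unadjusted p under 0.05 it took 1 of 13 macrophage markers in muscle and 0 in the other tissues, 3 of 11 granulocyte and mast cell markers in pancreas, and 0 of 7 B cell markers in each tissue. It took 2 of 12 T and NK cell markers in muscle and 0 elsewhere. Of 13 endothelial markers it took 1, 1, 2 and 0 in brain, kidney, muscle and pancreas. The shares of all genes under that unadjusted p were 4.13%, 9.28%, 7.29% and 2.91% in the same order. The part of cell composition in the members' ratios was not tested.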

How the data were processed

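Total RNA of 16 knockout samples (4 animals, 4 tissues) was measured on 32 two-colour cDNA arrays against pooled wild-type RNA, per the labels' protocols. The values the authors deposited are log2 ratios, 1 per probe and array; base 2 was inferred from their size, and the sources used here do not give scanner, background correction or normalisation. Probes were named through the platform annotation. Probes of a symbol were averaged, then the 2 arrays of an animal, both being required. Values beyond 8 in size stand apart from all others and were kept as deposited.

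limma 3.58.1 (R 4.3.3; lmFit, eBayes, two-sided) tested each tissue's mean against 0 over at least 3 animals, and the 6 tissue differences in 1 fit, with Benjamini-Hochberg adjustment over all genes at 0.05. The script was tested on simulated data. Precision is limited by the number of animals, 4 in each tissue, and not by the array number, since the arrays of an animal were averaged. Figures were drawn with matplotlib.

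Members and lists were chosen with earlier results of these data known. Members named are any that were called, the 4 of smallest p on each side of 0 with 1 sign in all 4 animals per tissue, the 2 of smallest p on each side per difference, and 24 classical inflammatory genes, 17 of them on the array, whatever their values; from other lists, the 2 of smallest p per tissue. Il10ra, Tnfrsf12a, Il27ra, Il15ra, Il11, Il2 and Tnfsf13 outside their tissues of that rule, and the lists' extremes, were named after their values were seen.

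The mouse numbers in the labels are the same in all tissues, so the samples pair by animal; deviations of the same animal in 2 tissues correlated at r from −0.0739 to 0.0867.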

Additional observations from a re-analysis of the deposited data

Results flagged for a closer look

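In 9 of 107 gene and tissue groups of 4 animals, 1 animal stood apart by Dixon's test; chance flags about 1 in 20 groups. Il15 in brain animal 4 was −1.05 (others −0.15 to −0.048), Cxcl12 in brain animal 4 was −0.46 (others −0.044 to −0.013), and Il6st in brain animal 2 was 0.28 (others −0.062 to −0.0065). In kidney, animal 1 stood apart for Ccr2 at −0.20 (others 0.081 to 0.13) and for Cxcl10 at −0.30 (others −0.017 to 0.030), and animal 2 for Ifnar2 at 0.12 (others −0.11 to −0.096). In pancreas, Ccl21a was −0.11 in animal 4 (others 0.17 to 0.22) and Ifngr1 was −0.18 in animal 1 (others 0.026 to 0.067). Ifngr2 in muscle animal 3 was 8.10, a mean that includes the array value of 16.3 at the ceiling of the scale (others −0.26 to 0.029).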

How the results depend on the processing

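With the Cy3 arrays turned, the medians of the members (brain, kidney, muscle, pancreas) were 0.047, 0.038, 0.085 and 0.067. limma then called 4 members in muscle (4.76%, background 1.97%) and 12 in pancreas (14.6%, background 14.6%). With this setting it called 13 for brain minus pancreas (16%, background 9.29%) and 3 for kidney minus pancreas (3.7%, background 2.18%). This setting also reversed Cxcl10 in muscle to 0.39 (adjusted p = 0.0482) and Ifngr2 in pancreas to 0.97 (0.0475). The arrays with the knockout in Cy5 alone gave medians of 0.028 in brain, 0.052 in kidney and 0.046 in pancreas, and those with it in Cy3 alone −0.070, −0.024 and −0.15.

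For brain minus muscle, 2 members (Il18 and Ccr2) were called with ceiling and floor values as missing (of 114 genes called) and with centred arrays (of 104). The same 2 were called with all 4 animals required (of 98) and with robust moderation (of 90). The median of probes called 1 (Il18, of 83). Subtracting the median of the other late probes called 1 (Ccl24, of 73). Leaving out each animal in turn called 0 to 4 members, of 0 to 223 genes. A spread shared over the tissues called 2 members in muscle (Il18 and Ccr2, of 255 genes) and 1 in pancreas (Ccl12, of 57). Leaving out members with late probe numbers moved the brain median to 0.024, and subtracting the late median moved it to 0.018. The cause was not tested. With the animal as a replicate block the paired fit called 0 members in each of the 6 differences, and Il18 for brain minus muscle stayed at −0.78 (adjusted p = 0.106). Over the named members, 1701 values were not called and moved by less than 1 SD, and 149 were not called and moved further. These 2 counts include the settings with the knockout in Cy5 or Cy3 alone, for which no test was run. Another 16 became called with the same sign and 2 became called with the opposite sign. Uncalled values that crossed 0 are not counted apart. Il6 in brain, as an example, kept its sign in 11 of 17 alternatives. With 4 animals and no wild-type spread, small differences were not detectable. Larger ones could be missed too: the Ccl12 mean of −0.70 in pancreas was not called in the main fit. The size that could be detected was not worked out.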
